A study of Homo sapiens with 12 samples.

Results

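The genes examined here encode the cytoplasmic translation initiation factors (eIFs), the elongation factors (eEFs) and the aminoacyl-tRNA synthetases. They were measured by RNA-seq in 2 triple-negative breast cancer (TNBC) cell lines with and without knockout (KO) of SMARCA4. They were chosen by symbol alone: EIF followed by a digit, apart from the EIF2AK kinases, EEF1 or EEF2, an amino acid letter followed by ARS or ARS2, and EPRS, FARSA and FARSB. This gave 89 of the 11529 genes in the table, of which 88 are protein-coding and 1, EEF1A1P5, is a pseudogene. They comprised 46 genes of initiation, 8 of elongation, 20 cytosolic synthetases and 14 mitochondrial synthetases. The annotation used here holds 104 protein-coding genes whose symbol fits the rule, and the other 16, among them EIF3C, AARS2, EARS2 and PARS2, were not analysed here.

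Translation begins when eIF2 brings the initiator tRNA to the small ribosomal subunit, which eIF3 binds and which eIF1 and eIF1A hold open. The complex eIF4F, made of the cap-binding protein eIF4E, the scaffold eIF4G and the helicase eIF4A, recruits the mRNA. eIF2B recharges eIF2 with GTP, and the eIF4E-binding proteins hold eIF4E away from eIF4G until the kinase mTORC1 phosphorylates them. During elongation eEF1A delivers the tRNAs that the synthetases have charged with amino acids, and eEF2 moves the ribosome along the mRNA.

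MDA-MB-468 cells, of the basal/stem-like TNBC subtype, and MDA-MB-231 cells, of the mesenchymal-like subtype, were each measured in 3 control and 3 SMARCA4 KO samples, 12 in all. SMARCA4 encodes BRG1, an ATPase of the SWI/SNF chromatin remodeling complex. The KO cells were infected with a lentiCRISPR-v2 virus that carries Cas9 and a guide RNA against SMARCA4 and were kept as polyclonal pools under puromycin, so that edited and unedited cells can be mixed. The control samples have the genotype wild type in the labels and are called control in their descriptions, so that it is not settled whether they carried a nontargeting vector or were parental cells without virus, Cas9 and puromycin. The labels also do not say whether the replicates are separate cultures, so that p-values measure the spread between these samples, which may be technical. In such bulk samples a change in all cells and a change in some of them cannot be told apart.

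SMARCA4 was 98.5 ± 2.44 FPKM (SD, n = 3) in MDA-MB-468 control cells and 43.6 ± 4.01 in KO cells, and 68.7 ± 2.46 in MDA-MB-231 control cells and 22.5 ± 1.42 in KO cells. FPKM counts fragments per kilobase of transcript, scaled to the size of the library, so that levels of different genes can be compared per length. The read depth is unknown. Across genes, replicates had correlations of 0.989 to 0.995, and 11293 to 11362 genes were above 0 in a sample. KRT7, KRT8, KRT18 and KRT19 were present in both cell lines, whereas KRT5, KRT14 and KRT17 were at 0.35 FPKM or less in MDA-MB-231 control cells. VIM was at 1309 FPKM in MDA-MB-231 and 2.61 FPKM in MDA-MB-468 control cells, and CDH1 at 0.267 and 44.5 FPKM. In MDA-MB-231 KO cells VIM fell by 0.39 on the log2 scale. CDH1 rose by 0.54, from 0.267 to 0.84 FPKM (adjusted p = 0.0442 in limma, and 0.136 with the replicate block). CD14 rose by 1.18, from 1.16 to 3.98 FPKM (adjusted p = 0.0294 in limma, and 0.101 with the block). In MDA-MB-468 KO cells KRT8 rose by 0.50 on the log2 scale (adjusted p = 0.0318 in limma, and 0.0621 with the replicate block), and KRT17 was at 67.0, 122 and 154 FPKM in control and 175, 349 and 457 FPKM in KO samples (adjusted p = 0.122 in limma, and 0.0329 with the block). Their part in the members' values was not tested. Of the leukocyte markers, CD68 was at 95.8 FPKM in MDA-MB-231 controls and CD14 at 49.6 FPKM in MDA-MB-468 controls, and PTPRC and CD3E were not analysed here.

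The elongation factor eEF1A shows how closely members can resemble each other. The first 60 coding bases of its genes and of the pseudogene, from the GRCh37 annotation, are printed with capitals for bases that differ from EEF1A1.
EEF1A1: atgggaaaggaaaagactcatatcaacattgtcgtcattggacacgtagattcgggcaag
EEF1A1P5: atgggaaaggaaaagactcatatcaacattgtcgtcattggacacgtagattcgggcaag
EEF1A2: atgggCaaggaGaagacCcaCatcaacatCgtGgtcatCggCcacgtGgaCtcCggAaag
EEF1A2 differed from EEF1A1 at 12 of these 60 bases, and the pseudogene at 0. Over the 1386 coding bases of EEF1A1, compared without gaps, the identity was 78.0% for EEF1A2 and 99.7% for EEF1A1P5. Of all stretches of 50 bases in the EEF1A1P5 transcript, 89.6% also occur in another gene, so that its level and that of EEF1A1 cannot be separated with certainty. Such shared stretches made up over 5% of the transcript in 25 of the 89 members. The highest shares were 100% for EIF4A1, 98.3% for EEF1G and 97.3% for VARS2, which include overlapping annotated genes and readthrough transcripts, and the values of these genes are uncertain to that extent.

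The members were among the more abundant transcripts. Their median level in MDA-MB-468 control cells was 61.4 FPKM against 17.0 FPKM over all genes, and 70.2 against 16.7 FPKM in MDA-MB-231 control cells. EEF1A1 had the highest level in every group, at 3618 ± 86.2 FPKM in MDA-MB-468 and 4598 ± 102 FPKM in MDA-MB-231 control cells. The lowest levels were those of EEF1A2 in MDA-MB-468 cells and of EIF4E3, a cap-binding paralog of eIF4E, in MDA-MB-231 cells. The 89 members together took 2.13% to 2.21% of the summed FPKM in MDA-MB-468 control samples and 2.24% to 2.37% in KO samples. In MDA-MB-231 cells they took 2.34% to 2.47% in control samples and 2.19% to 2.36% in KO samples. The KO samples thus lay above all controls in MDA-MB-468 cells, whereas the groups overlapped in MDA-MB-231 cells.

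The first comparison asked what SMARCA4 KO did to these genes in MDA-MB-468 cells. Few members changed, and by little: EIF4G2 and VARS2 rose and EIF4EBP2 fell, each by under 0.4 on the log2 scale. A gene was called changed when its adjusted p was under 0.05 in limma, with Benjamini-Hochberg adjustment over all 11529 genes, and a DEG when its log2 fold change also exceeded 0.5 in size. By this rule 2 of the 89 members rose, where 2.21% of all genes did, and 1 fell, where 1.54% of all genes did. No member was a DEG (0 of 89, against 2.14% of all genes). In 82 of the 89 members the log2 fold change was within 0.25 of 0.

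EIF4G2, also called DAP5, is a relative of the eIF4G scaffold that lacks the eIF4E-binding region and serves cap-independent initiation. Its level was 534, 561 and 593 FPKM in the MDA-MB-468 control samples and 681, 736 and 739 FPKM in the KO samples. All KO samples lay above all controls, with a log2 fold change of 0.35 (SE 0.06, adjusted p = 0.0449 in limma). EIF4EBP2 encodes an eIF4E-binding protein. It was at 43.6, 42.4 and 41.3 FPKM in control samples and at 32.7, 32.8 and 32.8 FPKM in KO samples, again without overlap, and its log2 fold change was -0.36 (SE 0.04, adjusted p = 0.0210 in limma). VARS2, the mitochondrial valyl-tRNA synthetase, was at 21.4, 20.9 and 21.2 FPKM in control and 25.0, 26.6 and 25.7 FPKM in KO samples. The log2 fold change of VARS2 was 0.27 (SE 0.04, adjusted p = 0.0382 in limma), and its groups did not overlap.

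These 3 calls lay close to the threshold. The replicate numbers may pair the samples in MDA-MB-468 cells, which is not settled. In a fit blocked on that number no member passed (0 of 89 by limma, with 20 members at an unadjusted p under 0.05). The blocked adjusted p was 0.0534 for EIF4G2, 0.0528 for EIF4EBP2 and 0.0774 for VARS2, and over the 14 alternatives it ranged from 0.0047 to 0.172, from 0.0022 to 0.147 and from 0.0153 to 0.166. Without control replicate 1, 2 or 3, or without KO replicate 2 or 3, 0 members passed (8 to 13 at an unadjusted p under 0.05), and without KO replicate 1 there were 4. With quantile normalization 1 member rose and 1 fell.

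The positions of these genes were taken from GENCODE release 44 mapped to GRCh37. EIF4G2 lies on the minus strand at chr11:10818597-10830487, EIF4EBP2 on the plus strand at chr10:72163901-72188374 and VARS2 on the plus strand at chr6:30881982-30894236. The 150 bases before the RefSeq start (GRCh38.p14) of EIF4G2 and EIF4EBP2, which changed in opposite directions, are shown with those of TARS, the cytosolic threonyl-tRNA synthetase described further on. Capitals mark a match to TTCNNNGAA, the palindrome that STAT factors bind.
EIF4G2: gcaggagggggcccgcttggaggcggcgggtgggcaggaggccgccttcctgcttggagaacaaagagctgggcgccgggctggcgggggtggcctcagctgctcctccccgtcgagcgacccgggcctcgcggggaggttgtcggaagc
EIF4EBP2: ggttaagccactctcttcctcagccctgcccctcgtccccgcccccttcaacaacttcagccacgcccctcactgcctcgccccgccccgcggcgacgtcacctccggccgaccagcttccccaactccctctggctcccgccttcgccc
TARS: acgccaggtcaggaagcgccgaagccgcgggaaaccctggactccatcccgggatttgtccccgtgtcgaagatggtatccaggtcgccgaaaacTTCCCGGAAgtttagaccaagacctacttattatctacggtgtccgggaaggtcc
They lie at chr11:10807997-10808146 on the minus strand, chr10:70403995-70404144 on the plus strand and chr5:33440546-33440695 on the plus strand. Windows from 250 bases before to 50 after the start were found for 73 of the 89 members, not including EEF1A2 and VARS2, and were searched on both strands. TTCNNNGAA was in 6.85% of them and in 7.66% of all 35116 promoters. CACGTG, the E-box that MYC and USF factors bind, was in 17.8% of the members' windows and 7.26% of all, and TGATGNAA, the form of the element that ATF4 binds with C/EBP partners, in 8.22% and 3.62%. Among 16 cytosolic synthetases TGATGNAA was in 4, namely AARS, IARS, MARS and NARS. A C followed by 4 pyrimidines within 2 bases of the start, on the coding strand, was in 28.8% of the members' windows and 10.5% of all. Where several windows were listed for a member only the first by position was used, whereas all were kept among the 35116. The median GC content was 62.7% in the members' windows and 58.7% in all. These shares are descriptions of letters and were not tested.

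By role, the signs of the changes in MDA-MB-468 cells were uneven although few genes passed the test. Of the 89 members, 67 had a positive log2 fold change, with a median of 0.07 against 0.02 over all genes. The number was 64 after scaling to the same 75th percentile of FPKM and 58 after quantile normalization. All 12 measured subunits of eIF3 were positive, with a median of 0.14, although none passed the test (0 of 12 in limma, with 5 at an unadjusted p under 0.05). EIF3F was at 57.1, 58.9 and 59.3 FPKM in control and 72.7, 65.9 and 70.7 FPKM in KO samples, a log2 fold change of 0.25 (SE 0.05, adjusted p = 0.0612 in limma). EIF3L, at 0.03, was the smallest of the 12. All 6 genes of eIF5, eIF5A, eIF5B and eIF6 were positive too, with a median of 0.15 and 0 past the test (1 at an unadjusted p under 0.05).

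The 3 KO samples lay above the 3 controls in 23 members in MDA-MB-468 cells (25.8%), where 17.5% of all genes did, and below them in 2 (2.25%), where 13.5% of all genes did. The 2 were EIF4EBP2 and IARS. Of the 23, 5 were eIF3 subunits (EIF3D, EIF3F, EIF3G, EIF3H and EIF3K) and 5 were mitochondrial synthetases. SARS2, the mitochondrial seryl-tRNA synthetase, and EIF5A2, a paralog of the hypusine-bearing factor eIF5A, had the largest increases after EIF4G2. SARS2 went from 23.7 ± 1.25 to 30.5 ± 2.26 FPKM (log2 fold change 0.35, SE 0.07, adjusted p = 0.0601 in limma). EIF5A2 went from 7.05 ± 1.11 to 9.19 ± 1.29 FPKM (log2 fold change 0.34, SE 0.14, adjusted p = 0.206 in limma), and its groups overlapped. After EIF4EBP2 the lowest values were those of EEF2K, the kinase that inhibits eEF2, at -0.18 (SE 0.13), and of EIF2A, at -0.12 (SE 0.06), and neither passed the test.

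In MDA-MB-231 cells SMARCA4 KO was followed by a rise of EEF1A2 and by small decreases of initiation factors and synthetases. EEF1A2 reached 2.57 times its control FPKM, and 12 members fell by 0.22 to 0.37 on the log2(FPKM + 1) scale. They were EIF2B3, EEF1E1, EIF4E3, EIF4A1, MARS, TARS, EIF1B, EIF1AX, EIF2S2, FARSB, EIF4A2 and EIF4G2. Thus 1 of 89 members rose, where 5.34% of all genes did, and 12 fell (13.5% of the members), where 5.48% of all genes did. EEF1A2 was the 1 member that was a DEG, against 3.7% of all genes. The role of each member and its change in both cell lines is shown in the plot of changes by role.

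**Figure D1:**
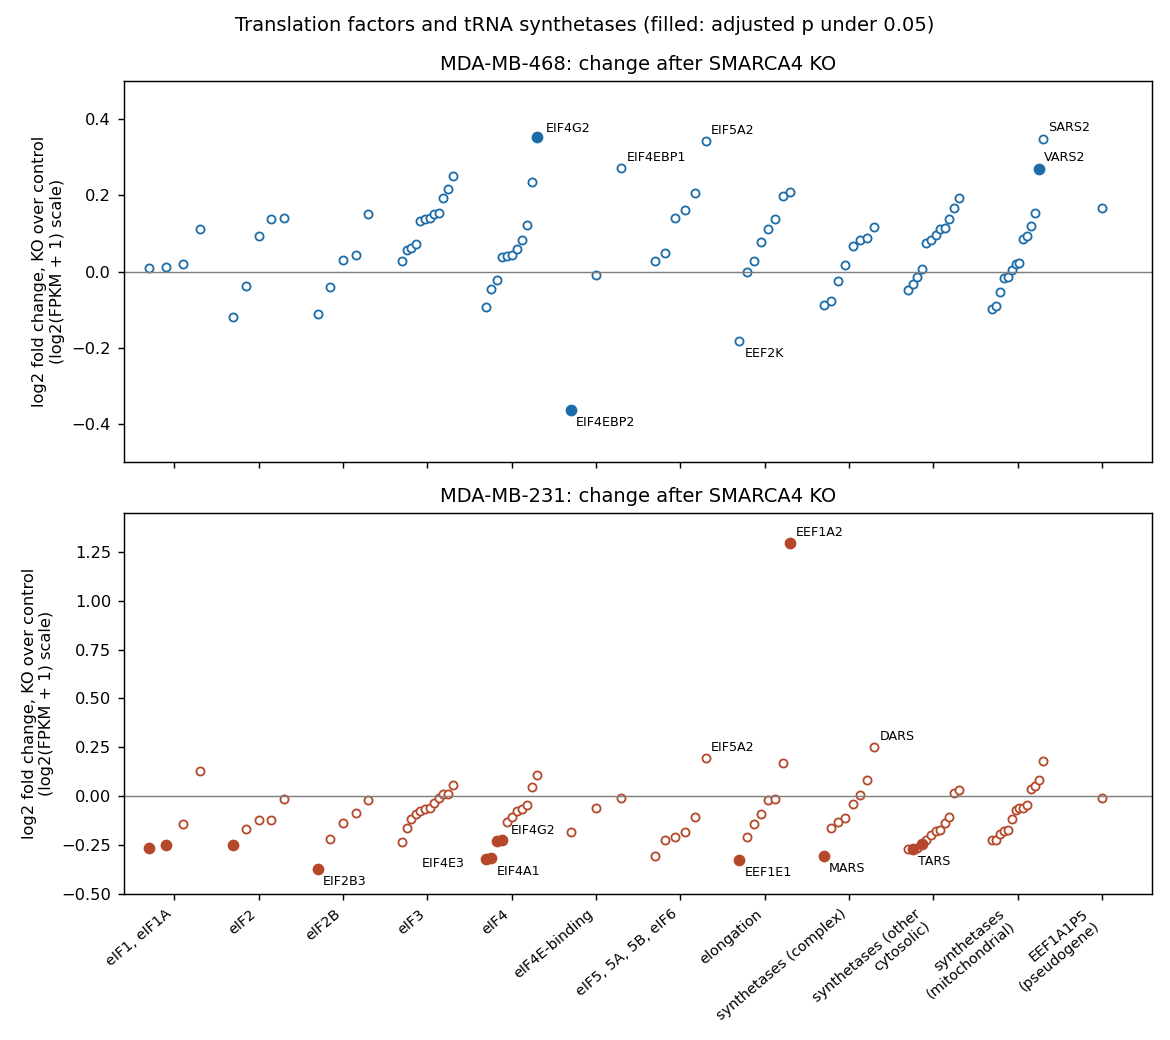
Log2 fold change of each member after SMARCA4 KO (y axis, log2(FPKM + 1) scale, KO over control) by role (x axis), in MDA-MB-468 cells (top) and MDA-MB-231 cells (bottom, with a longer y axis). Each point is 1 gene and filled points passed an adjusted p of 0.05; most points lie above 0 in the top panel and below 0 in the bottom panel, and EEF1A2 stands apart at 1.29.

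EEF1A2 encodes the form of eEF1A that is normally confined to neurons and muscle. Its level in MDA-MB-231 cells was 8.16, 11.6 and 12.1 FPKM in control samples and 30.1, 27.9 and 23.9 FPKM in KO samples. All KO samples were above all controls, and the log2 fold change was 1.29 (SE 0.16, adjusted p = 0.0140 in limma), 2.57 times the FPKM. EEF1A2 made up 0.231% ± 0.0491 of the summed FPKM of EEF1A1 and EEF1A2 in control and 0.599% ± 0.0771 in KO samples (SD, n = 3). EEF1A1 itself was 4670, 4481 and 4642 FPKM in control and 4472, 4534 and 4602 FPKM in KO samples, with overlapping groups and a log2 fold change of -0.02 (SE 0.04). In MDA-MB-468 cells EEF1A2 was listed at 0 in 2 of 3 control samples and in 1 of 3 KO samples, and at 0.04 to 0.06 FPKM in the others. None of the stretches of 50 bases in EEF1A2 occur in another gene (0%). The call held under 10 of 13 alternatives, with adjusted p from 7.71e-05 to 0.0817. It was lost with the replicate block and without KO replicate 1 or 2.

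EEF1A2 lies on the minus strand at chr20:62119366-62130592 (GRCh37). Its nearest measured neighbours were looked at after its value had been seen. PTK6, which encodes a tyrosine kinase, rose from 6.13 ± 0.806 to 8.96 ± 0.783 FPKM in MDA-MB-231 KO cells (log2 fold change 0.48, SE 0.10, adjusted p = 0.0401 in limma), and STMN3, a stathmin-like gene, from 14.5 ± 0.895 to 26.5 ± 3.07 FPKM (0.82, SE 0.10, adjusted p = 0.0119 in limma). PPDPF, between EEF1A2 and PTK6, and HELZ2, between PTK6 and STMN3, had log2 fold changes of 0.19 and 0.51 that did not pass the test. On the other side ARFGAP1 had 0.07, YTHDF1 -0.04, SLC17A9 -0.15 and GID8 0.03, and none of these passed the test.

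Several of the 12 decreases concerned the start of translation. EIF2B3 encodes the gamma subunit of eIF2B. It was at 32.2, 29.4 and 32.4 FPKM in control and 23.9, 23.7 and 24.4 FPKM in KO samples, and the log2 fold change was -0.37 (SE 0.05, adjusted p = 0.0184 in limma). The other 4 subunits of eIF2B had values of -0.22 to -0.02 and none passed the test. EIF2S2, the beta subunit of eIF2, was at 115, 110 and 113 FPKM in control and 95.1, 94.9 and 93.5 FPKM in KO samples (-0.25, SE 0.04, adjusted p = 0.0248 in limma). The groups of both genes did not overlap. EIF1AX and EIF1B, which help the ribosome find the start codon, changed by -0.25 and -0.26.

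Within eIF4F, EIF4A1, the main helicase, was at 932, 914 and 918 FPKM in MDA-MB-231 control and 685, 730 and 807 FPKM in KO samples. Its log2 fold change was -0.32 (SE 0.07, adjusted p = 0.0438 in limma), and that of its paralog EIF4A2 was -0.23 (SE 0.05, adjusted p = 0.0455 in limma). All stretches of EIF4A1 occur in other annotated genes, so that its value is uncertain. EIF4E3 was at 1.27 ± 0.0513 FPKM in control and 0.813 ± 0.0808 FPKM in KO samples, 0.642 times the control FPKM. At this low level the log2(FPKM + 1) scale shrinks the change, which was -0.32 on it. EIF4G2 was at 347, 334 and 322 FPKM in control and 284, 281 and 294 FPKM in KO samples (-0.22, SE 0.05, adjusted p = 0.0420 in limma), so that it fell in this cell line. The cap-binding protein EIF4E, at -0.10 (SE 0.05), and the scaffold EIF4G1, at -0.06 (SE 0.05), did not pass the test, nor did EIF4EBP1, at -0.18 (SE 0.05).

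Of the 20 cytosolic synthetases 3 fell in MDA-MB-231 cells, where 5.48% of all genes did, and 15 had a negative log2 fold change, with a median of -0.15. MARS, the methionyl-tRNA synthetase and a member of the multisynthetase complex, was at 81.0, 82.6 and 77.0 FPKM in control and 61.8, 67.5 and 65.1 FPKM in KO samples (-0.30, SE 0.05, adjusted p = 0.0294 in limma). TARS was at 267, 244 and 247 FPKM in control and 213, 204 and 212 FPKM in KO samples (-0.27, SE 0.05, adjusted p = 0.0361 in limma). In neither gene did the groups overlap. FARSB, the beta subunit of the phenylalanyl-tRNA synthetase, was at 32.9, 33.1 and 34.1 FPKM in control and 27.5, 27.5 and 29.2 FPKM in KO samples (-0.24, SE 0.05), and EEF1E1, a small protein named as an elongation factor that also belongs to the multisynthetase complex, at 101 ± 2.00 and 80.6 ± 7.10 FPKM (-0.33, SE 0.07). DARS, the aspartyl-tRNA synthetase, was the highest after EEF1A2, at 74.9 ± 6.64 FPKM in control and 89.4 ± 5.91 in KO samples, and did not pass the test (0.25, SE 0.08, adjusted p = 0.109 in limma), nor did EIF5A2, the next (0.20, SE 0.12). None of the 14 mitochondrial synthetases passed (0 in limma, with 3 at an unadjusted p under 0.05).

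In MDA-MB-231 cells 71 of the 89 members had a negative log2 fold change, with a median of -0.11 against -0.01 over all genes. After scaling to the same 75th percentile 63 were negative, and after quantile normalization 62. The 3 KO samples lay below the 3 controls in 28 members (31.5%), where 19.4% of all genes did, and above them in 4 (4.49%), where 16.6% of all genes did. The 4 were EEF1A2, EIF4B, DARS and VARS2. Of the 28, 9 were cytosolic synthetases and 5 were of the eIF4 group.

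The number of members changed in MDA-MB-231 cells depended on the samples and the scaling. Without any of the 6 samples in turn, 0 to 2 members passed: 1 without control replicate 1 or 3, 2 without control replicate 2 or KO replicate 3, and 0 without KO replicate 1 or 2 (21 and 22 at an unadjusted p under 0.05). With scaling to the 75th percentile, EEF1A2 and 5 of the decreases passed. In a fit blocked on the replicate number 0 members passed, with 26 at an unadjusted p under 0.05 in limma. Each of the 12 decreases held under 3 to 7 of its alternatives. Other core members passed in neither line. EIF2S1, the alpha subunit of eIF2 that the stress kinases phosphorylate, had 0.14 (SE 0.10) in the MDA-MB-468 line and -0.17 (SE 0.08) in the MDA-MB-231 line, where its KO samples lay below the controls. The eIF3 subunit EIF3A had 0.06 and -0.06, EIF2B5, the catalytic subunit of eIF2B, -0.04 and -0.02, and EPRS, a synthetase for both glutamate and proline, 0.09 and -0.04.

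**Figure D2:**
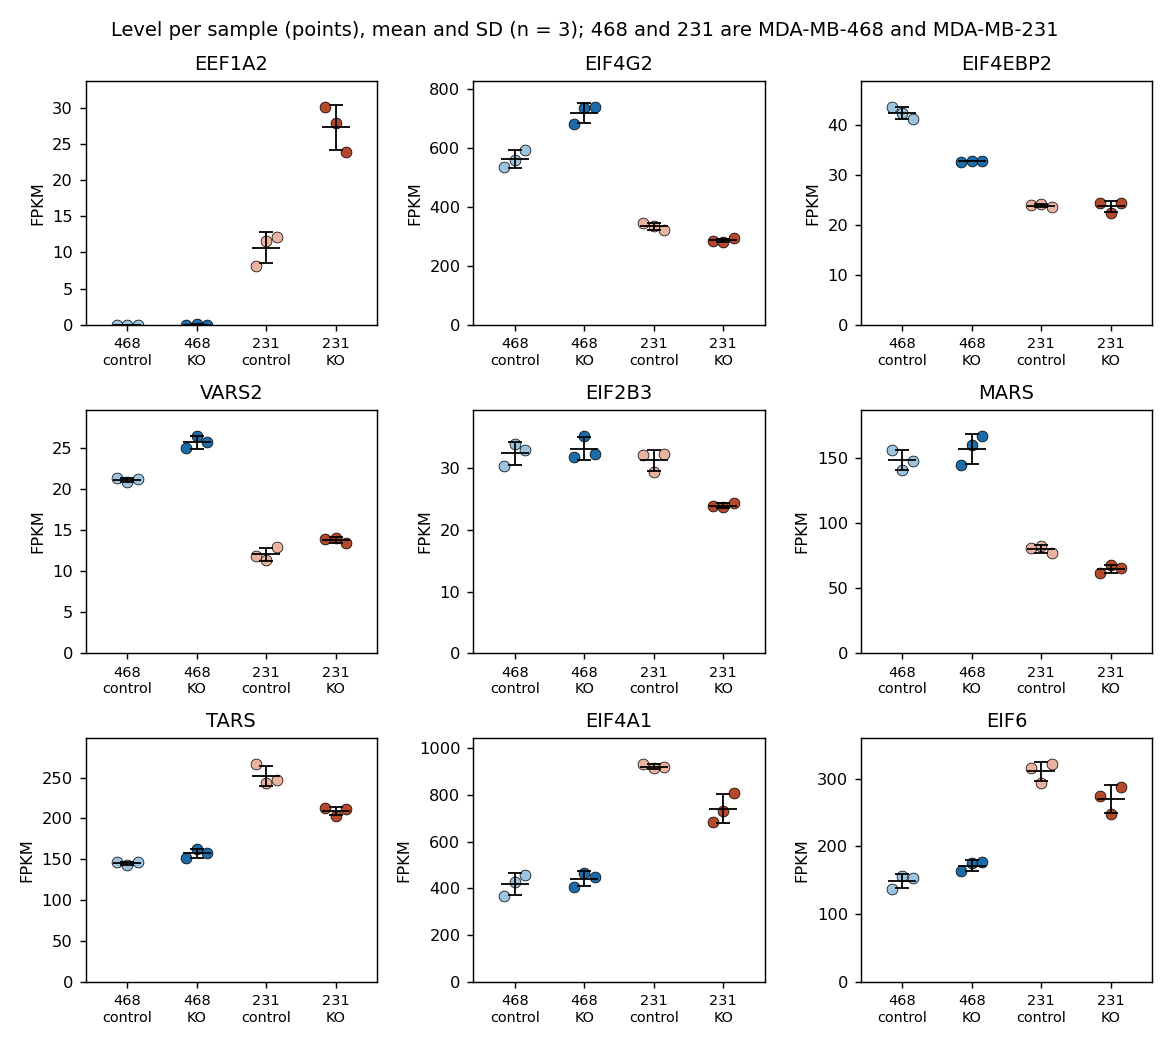
FPKM (y axis, from 0) of 9 members in the 4 groups (x axis), each point 1 sample, with the mean and SD (n = 3). EEF1A2 is near 0 in MDA-MB-468 cells and rises from 10.6 to 27.3 FPKM in MDA-MB-231 KO cells, EIF4G2 is higher in KO samples of MDA-MB-468 and lower in those of MDA-MB-231, and EIF4EBP2 is lower in the KO samples of MDA-MB-468.

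Whether the KO change differed between the cell lines was tested directly, as the interaction in a fit of all 12 samples. It was more positive in MDA-MB-468 cells for 13 members (14.6%), where 7.91% of all genes passed in this direction, and more negative for 2 (2.25%), where 6.83% did. The 13 were EIF4G2, FARSA, EIF4EBP1, EIF6, EEF1B2, EIF2B3, EIF5A, MARS, TARS, EIF3J, EIF1AX, EIF2S2 and HARS, and the 2 were EEF1A2 and EIF4EBP2. With the replicate block HARS no longer passed (adjusted p = 0.0783 in limma), and EIF4A1 (0.0323), EIF3G (0.0371) and TARS2 (0.0436) did.

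EEF1A2, at -1.27, is given with no test: it was at 0 to 0.06 FPKM in MDA-MB-468 cells, where the log2(FPKM + 1) scale holds any change near 0, so that its value restates the rise in MDA-MB-231 cells. Of the others the difference was largest in size for EIF4G2, at 0.58 (SE 0.09, adjusted p = 0.00241 in limma). EIF4G2 was also the single member that passed the test in both cell lines, upward in MDA-MB-468 and downward in MDA-MB-231 cells. EIF4EBP2 fell in MDA-MB-468 cells and was 23.9 ± 0.287 FPKM in control and 23.7 ± 1.08 FPKM in KO samples of MDA-MB-231 cells, and the difference was -0.35 (SE 0.08, adjusted p = 0.0154 in limma). EIF4G2 and EIF4EBP2 passed under all 18 alternatives.

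FARSA, the alpha subunit of the phenylalanyl-tRNA synthetase, was at 90.8, 102 and 108 FPKM in control and 112, 112 and 119 FPKM in KO samples of MDA-MB-468 cells. In MDA-MB-231 cells it was at 95.6, 85.9 and 89.8 FPKM in control and 70.4, 74.4 and 81.1 FPKM in KO samples. The difference of 0.46 (SE 0.11, adjusted p = 0.0222 in limma) passed under 15 of 18 alternatives, and the change passed in neither cell line alone. EIF4EBP1, the paralog of EIF4EBP2, was at 110, 103 and 99.6 FPKM in control and 142, 122 and 116 FPKM in KO samples of MDA-MB-468 cells. In MDA-MB-231 cells it was at 93.3, 87.1 and 93.0 FPKM and at 79.2, 78.9 and 82.2 FPKM, and the difference was 0.45 (SE 0.11, adjusted p = 0.0211 in limma). Both groups of KO samples lay outside their controls, upward in MDA-MB-468 and downward in MDA-MB-231 cells.

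EIF6, which keeps the large ribosomal subunit from joining, had a difference of 0.41 (SE 0.11, adjusted p = 0.0283 in limma) that passed under 10 of 18 alternatives. Its level went from 149 ± 9.88 to 172 ± 7.61 FPKM in MDA-MB-468 and from 311 ± 14.5 to 270 ± 20.4 FPKM in MDA-MB-231 cells. EEF1B2, the exchange factor of eEF1A, had a difference of 0.41 (SE 0.11, adjusted p = 0.0295 in limma) and passed under 13 of 18. EIF5A and MARS each had a difference of 0.39. Leaving out 1 sample gave 6 to 17 members past the test: 7 without MDA-MB-231 control replicate 1, 9 without control replicate 3 of MDA-MB-231, 9 without control replicate 1 or KO replicate 3 of MDA-MB-468, 6 without KO replicate 2 of MDA-MB-468, and 6 and 7 without KO replicates 1 and 2 of MDA-MB-231.

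Across the family, 52 of the 89 members had a positive change in MDA-MB-468 and a negative one in MDA-MB-231 cells (58.4%), as had 3231 of all 11529 genes, and 3 had the reverse. Another 15 were positive and 19 negative in both. The difference between the changes had a median of 0.18 over the members, 0.02 over all genes and 0.10 over the 3456 genes whose log2 values averaged over 5. Among those 3456 genes 61.1% had a positive change in MDA-MB-468 cells, against 75.3% of the members. In MDA-MB-231 cells it was 36.1%, against 20.2%, so that abundant genes in general leaned the same way. The part of transcript abundance in the members' values was not tested. After scaling to the 75th percentile the median of the members' differences was 0.13, with -0.02 over all genes.

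**Figure D3:**
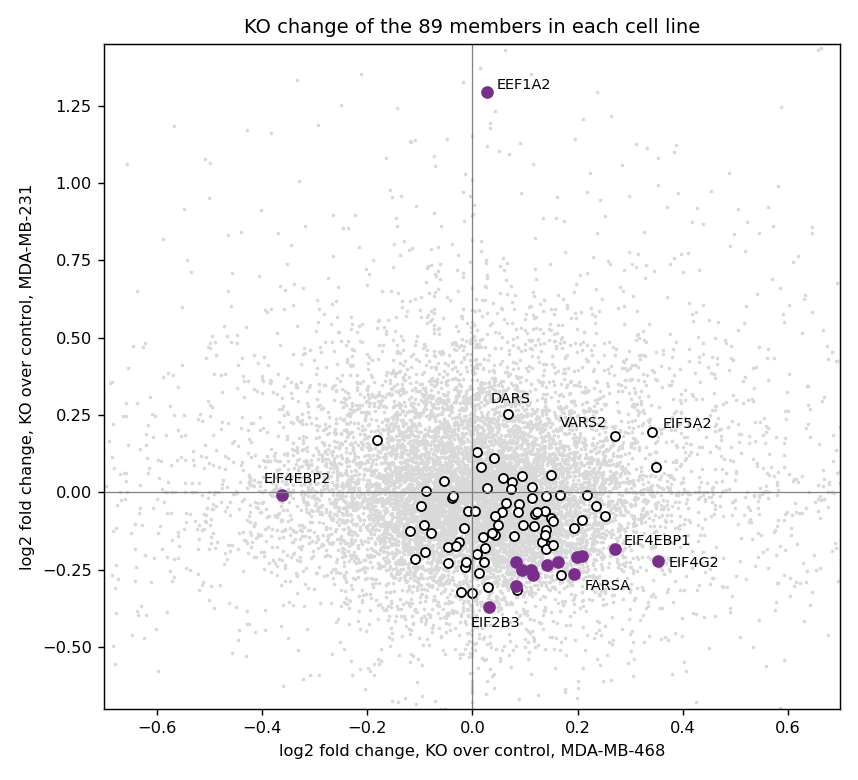
Log2 fold change after SMARCA4 KO in MDA-MB-468 (x axis) against MDA-MB-231 cells (y axis). Circles are the 89 members, filled where the change differed between the cell lines (adjusted p under 0.05), and gray dots are the other genes. For EEF1A2 the filling only restates its rise in MDA-MB-231 cells. At the lower right lie 52 members, with EEF1A2 at the top and EIF4EBP2 at the left, and the axes are cropped for the gray dots.

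The control cells of the 2 lines were compared to give the level from which each member started. The lines differed in 72 of the 89 members: 35 were higher in MDA-MB-468 cells, where 42.4% of all genes were, and 37 lower, where 41.5% were. With the log2 fold change over 0.5 there were 46 (51.7%), where 64.1% of all genes passed. These counts include EIF4G3, EEF1A2 and EIF5AL1, which were under 1 FPKM in MDA-MB-468 cells and so passed the deposit's filter through MDA-MB-231 cells alone; their values are given with no test. The deposit's filter also dropped genes with an SD below 1 FPKM. Within both lines the SD was under 1 FPKM for 5 members: EIF5AL1, EIF4E3, LARS2, MARS2 and EEF2K. These were thus listed only through a difference between the lines. As 1 line of each kind was measured, the values compare these lines and not the subtypes. In the median member 87.9% of the variance over the 12 samples lay between the lines and 6.18% between KO and control within them, against 87.6% and 4.23% over all genes.

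EIF4G3, a paralog of the scaffold EIF4G1, gave the largest difference. It was listed at 0.07, 0.20 and 0.06 FPKM in MDA-MB-468 control and 0.11, 0.11 and 0.21 FPKM in KO samples. In MDA-MB-231 cells it was at 35.4, 36.0 and 30.1 FPKM in control and 32.5, 29.7 and 33.5 FPKM in KO samples. The difference of the control lines was -4.97 on the log2(FPKM + 1) scale and -7.39 with 0.1 in place of 1. EIF4G3 made up 8.34% ± 0.497 of the summed FPKM of EIF4G1 and EIF4G3 in MDA-MB-231 and 0.0529% ± 0.0370 in MDA-MB-468 control cells. Its log2 fold change after SMARCA4 KO in MDA-MB-231 cells was -0.08 and did not pass the test. In MDA-MB-468 cells, at 0.06 to 0.21 FPKM, the log2(FPKM + 1) scale holds any change near 0, so that a KO change cannot be judged there.

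EIF4G3 lies at chr1:21132785-21503778 (GRCh37). Its nearest measured neighbours were looked at after its value had been seen. SH2D5 was at 0.050 ± 0.010 FPKM in MDA-MB-468 and 8.25 ± 2.90 FPKM in MDA-MB-231 control cells, and ECE1 at 23.2 ± 3.09 and 94.8 ± 14.0 FPKM. RAP1GAP was higher in MDA-MB-468 control cells, at 6.73 ± 1.59 FPKM against 0.743 ± 0.104 FPKM. In the same order PINK1 was at 61.7 and 63.0 FPKM, DDOST at 104 and 157 FPKM and USP48 at 15.3 and 26.1 FPKM. HP1BP3, between EIF4G3 and SH2D5, was at 111 ± 1.19 and 139.9 ± 12.4 FPKM, and NBPF3 at 7.37 ± 0.369 and 5.19 ± 0.699 FPKM.

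EEF1A2 followed, with a difference of -3.50, and EIF5AL1, a retrogene of EIF5A, with -1.65. EIF5AL1 was at 0.207 ± 0.0929 FPKM in MDA-MB-468 and 2.80 ± 0.518 FPKM in MDA-MB-231 control cells, and shares 15.3% of its stretches with other genes, EIF5A first among them. EIF5A itself was lower in MDA-MB-468 cells by 0.88. At the other end RARS2, the mitochondrial arginyl-tRNA synthetase, was at 43.6, 44.1 and 42.3 FPKM in MDA-MB-468 and 10.2, 10.5 and 10.7 FPKM in MDA-MB-231 control cells, 1.95 on the log2 scale (SE 0.06, adjusted p = 5.2e-08 in limma). RARS2 lies at chr6:88223177-88299746 (GRCh37). Its measured neighbours were looked at after its value had been seen. In MDA-MB-468 control cells SLC35A1 was higher by 1.43, SMIM8 by 0.52, ZNF292 by 1.03, ORC3 by 0.55, AKIRIN2 by 0.35, RNGTT by 0.89 and PNRC1 by 0.47, whereas SNHG5 was lower by 2.37.

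The subunits of eIF3 form a single complex, yet they did not differ between the lines in the same direction. Of the 12 measured, 6 were higher and 4 lower in MDA-MB-468 control cells (42.4% and 41.5% of all genes). EIF3B (0.18, SE 0.09) and EIF3I (0.03, SE 0.08) did not pass the test. EIF3G was at 547 ± 30.5 FPKM in MDA-MB-468 and 185 ± 5.31 FPKM in MDA-MB-231 control cells (1.56, SE 0.07) and EIF3M at 748 ± 30.8 and 299 ± 15.9 FPKM (1.32, SE 0.07). In contrast, EIF3F was at 58.4 ± 1.17 and 136 ± 10.3 FPKM (-1.20, SE 0.08) and EIF3E at 142 ± 3.53 and 286 ± 11.7 FPKM (-1.01, SE 0.07). All 4 differences passed the test, and the eIF3 levels in MDA-MB-468 control cells ran from 52.3 FPKM for EIF3J to 748 FPKM for EIF3M.

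Of the 14 mitochondrial synthetases 10 were higher in MDA-MB-468 cells and 2, LARS2 and YARS2, lower, where 42.4% and 41.5% of all genes were. These counts include LARS2 and MARS2, which the filter kept only through a difference between the lines. HARS2 was at 34.5 ± 1.05 and 16.4 ± 0.881 FPKM (1.03, SE 0.07). Of the 20 cytosolic synthetases 9 were higher and 8 lower, near those shares. KARS, the lysyl-tRNA synthetase, was at 162, 176 and 182 FPKM in MDA-MB-468 and 88.5, 83.4 and 82.8 FPKM in MDA-MB-231 control cells (1.02, SE 0.07), and TARS was lower by 0.79. All 3 eIF4E-binding genes were higher in MDA-MB-468 cells, EIF4EBP2 by 0.80 (SE 0.06), whereas EIF4E was lower by 0.50 and EIF4A1 by 1.15. EEF1B2 was lower by 1.26, and EEF2 did not pass the test (-0.05, SE 0.07).

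**Figure D4:**
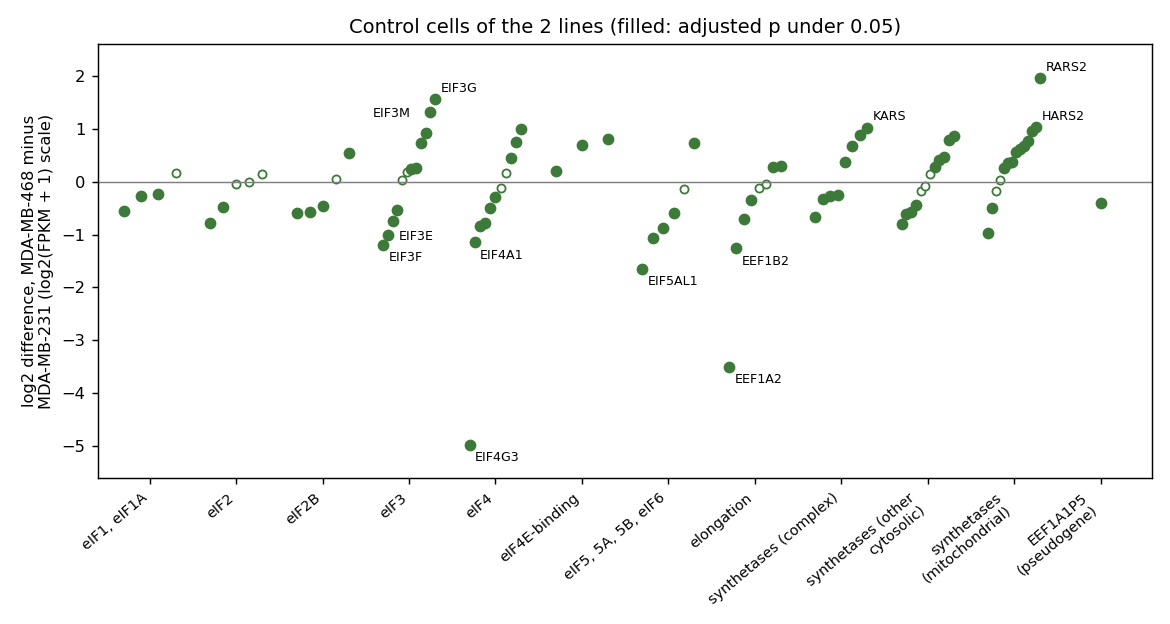
Difference of each member between MDA-MB-468 and MDA-MB-231 control cells (y axis, log2(FPKM + 1) scale) by role (x axis). Points are filled where the adjusted p was under 0.05, which for EIF4G3, EEF1A2 and EIF5AL1 the filter decides. EIF4E3, LARS2 and MARS2 are filled too, and the filter kept them only through a difference between the lines. EIF4G3 at -4.97 and EEF1A2 at -3.50 lie far below the others, RARS2 at 1.95 above them, and the eIF3 subunits spread from -1.20 to 1.56.

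Genes that act beside the members were read from lists of their pathway, against the 5.34% of all genes that rose and the 5.48% that fell in MDA-MB-231 KO cells, and the 2.21% and 1.54% in MDA-MB-468 KO cells. Of 6 genes of termination and ribosome recycling, 2 fell in MDA-MB-231 KO cells: ETF1, the factor that recognizes stop codons, from 71.3 ± 3.23 to 58.3 ± 2.84 FPKM (-0.29, SE 0.06, adjusted p = 0.0386 in limma), and its partner GSPT1 from 85.7 ± 3.03 to 71.9 ± 3.30 FPKM (-0.25, SE 0.05, adjusted p = 0.0441 in limma). AIMP1, a scaffold of the multisynthetase complex, fell by 0.25 on the log2 scale, 1 of 5 genes of its list. Of 20 mTORC1 regulators 1 fell in MDA-MB-468 cells, RRAGD, a Rag GTPase (-0.68, SE 0.12, adjusted p = 0.0475 in limma, and 0.0505 with the replicate block, over a range of 0.00285 to 0.147). The 8 enzymes that make the diphthamide of eEF2 and the hypusine of eIF5A were all positive in MDA-MB-468 and 7 of them negative in MDA-MB-231 cells, and 0 passed in either line (2 in each at an unadjusted p under 0.05).

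Many synthetases are targets of ATF4, the transcription factor of the integrated stress response. Of 21 ATF4 targets apart from the synthetases, with ATF4 itself among them, 1 rose and 4 fell in MDA-MB-231 KO cells, where 5.34% and 5.48% of all genes did. In MDA-MB-468 KO cells 0 changed (3 at an unadjusted p under 0.05), where 2.21% of all genes rose and 1.54% fell. SHMT2, a mitochondrial serine enzyme, fell from 117 ± 5.62 to 80.2 ± 8.85 FPKM and CHAC1, a glutathione-degrading enzyme, from 3.94 ± 0.531 to 2.46 ± 0.131 FPKM, while NUPR1 rose from 1.02 ± 0.215 to 1.88 ± 0.0929 FPKM. ATF4 mRNA was at 167 ± 13.1 FPKM in control and 171 ± 3.73 FPKM in KO samples of MDA-MB-231 cells and at 660 ± 17.2 FPKM in MDA-MB-468 control cells. Of 11 genes induced by interferon-gamma, which also induces WARS, GBP1 fell in MDA-MB-231 KO cells (-0.46, SE 0.06, adjusted p = 0.0179 in limma), and WARS did not pass the test (-0.14, SE 0.07). The largest change of that list was in MDA-MB-468 cells, where GBP2 was at 52.9, 45.3 and 38.0 FPKM in control and 24.5, 12.8 and 11.3 FPKM in KO samples (-1.50, SE 0.30, adjusted p = 0.0579 in limma, and 0.0487 with the replicate block). The difference of its change between the lines was -1.79 (adjusted p = 0.00757 in limma). Of the eIF2 kinases and phosphatase, the mitochondrial translation factors and the poly(A)-binding and initiation cofactors, 6, 13 and 9 genes were measured. None of them changed in either line alone (0 in limma). At an unadjusted p under 0.05 MDA-MB-468 cells had 3, 7 and 1 of them, and MDA-MB-231 cells 3, 3 and 0. The change differed between the lines, however, for EIF2AK4, by 0.52 (adjusted p = 0.02985 in limma), and EIF2AK1, by -0.42 (adjusted p = 0.0174 in limma). It also differed for 1 poly(A)-binding or initiation cofactor, by -1.18. The log2 fold change of that gene in MDA-MB-468 cells was -0.92 and did not pass the test. The calls in MDA-MB-231 cells among these neighbouring pathways held under 3 to 9 of 13 alternatives.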

How the data were processed

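Trimmed reads (Trimmomatic) were aligned by the authors with STAR against hg19 and quantified with RSEM. The authors dropped genes that averaged under 1 FPKM or varied with an SD below 1 and deposited log2(FPKM + 1) values, and the smallest average and SD in the table were 1.07 and 1.00. Because of this filter a gene must vary between samples to be listed, and 3 members (EEF1A2, EIF4G3 and EIF5AL1) were under 1 FPKM in 1 line. In 18 rows a date replaces the symbol. They were tested and not named.

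Each line was fitted alone with limma 3.58.1 (R 4.3.3, lmFit, eBayes without trend), tested on simulated data, on the deposited log2 values without further normalization, and the interaction and control contrasts in their own fits. FPKM were obtained by undoing the log. Pairing was checked from the titles' replicate numbers: deviations of same-numbered samples correlated at 0.25, 0.16 and 0.12 in MDA-MB-468 cells and at -0.05, 0.07 and -0.11 in MDA-MB-231 cells, so that the numbers pair samples only in the former. The p numbers in the descriptions of the samples, whose meaning the labels do not give, form other pairs in MDA-MB-468 cells. Alternatives were another pseudocount, a filter, a trend, 2 scalings, blocks, a joint fit, and leaving out samples or members with shared reads.

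The members, role groups and lists were chosen with earlier results of these data known. Genes named were all members changed after KO, the 3 highest and lowest per line, the 5 highest and lowest differences between lines and between control lines, a fixed set of factors, and up to 3 changed genes of each other list. Those given beyond the rule (neighbouring genes, eIF3 subunits and single values in role groups and other lists) were chosen after their values were seen. Older synthetase symbols (18) were matched to current ones. Python 3.11.15, pandas 2.3.3, numpy 2.4.6 and matplotlib 3.10.9 were used for annotation and figures.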

Additional observations from a re-analysis of the deposited data

Results flagged for a closer look

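The KO change differed between the cell lines, by the interaction test in limma (adjusted p under 0.05), for the 15 members described in the report. EEF1A2 is counted among them although its value is given with no test. Subtracting the MDA-MB-231 change from the MDA-MB-468 change gave -1.27 for EEF1A2, which is near 0 FPKM in MDA-MB-468 cells so that the value restates its rise in MDA-MB-231 cells, and -0.353 for EIF4EBP2. It was 0.576 for EIF4G2, 0.455 for FARSA, 0.454 for EIF4EBP1, 0.413 for EIF6, 0.408 for EEF1B2, 0.401 for EIF2B3, 0.387 for EIF5A, 0.386 for MARS, 0.382 for TARS, 0.377 for EIF3J, 0.363 for EIF1AX, 0.343 for EIF2S2 and 0.308 for HARS, on the log2 scale.

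Among the other named genes the difference was -0.905 for RRAGD, -0.669 for NUPR1, 0.429 for SHMT2, 0.676 for CHAC1 and 0.705 for GBP1. SMARCA4 itself fell by 1.16 in MDA-MB-468 and by 1.57 in MDA-MB-231 KO cells, a difference of 0.41. Groups of 3 samples were too small to be searched for single outlying samples.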

How the results depend on the processing

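The read depth is unknown, and with 3 samples a group single samples decide many calls. Members changed in MDA-MB-468 KO cells numbered 3. There were 0 with the replicate block (titles or p numbers) and with a log2 fold change over 0.5 or 1, 5 in the joint fit, and 0 to 4 when 1 replicate was left out. In MDA-MB-231 KO cells there were 13. There were 7 with log2(FPKM + 0.1) or quantile normalization, 6 with scaling to the 75th percentile and 8 without members that may share reads. The replicate block gave 0, and whether the numbers pair these samples is not settled. A log2 fold change over 0.5 or 1 gave 1, and leaving out 1 replicate gave 0 to 2. The difference between the lines gave 15, EEF1A2 included, with 2 and 1 at fold limits of 0.5 and 1 and 6 to 17 when 1 replicate was left out. The control lines gave 72, with 46 and 13 at the fold limits and 69 to 73 when 1 replicate was left out. With the replicate block no gene of the table passed in MDA-MB-231 KO cells (0 of 11529 in limma, with 26 members at an unadjusted p under 0.05), so that every call there was lost, SMARCA4 included (adjusted p = 0.0520, over a range of 5.5e-07 to 0.0520). Between the control lines the block gave 71 members and lost EIF4EBP1. The causes were not tested, apart from fewer samples or members where these were left out.

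The sign turned for genes that did not pass and lay near 0. In MDA-MB-231 KO cells these were, with scaling to the 75th percentile, EIF4EBP2 (0.0261), EIF2B5 (0.0194) and EEF1A1 (0.0178), and with quantile normalization EIF4G1 (0.0209), EIF4EBP2 (0.00821) and EIF2B5 (0.00455). When 1 replicate was left out the range was -0.0631 to 0.0387 for EIF2B5, -0.0289 to 0.0273 for EIF4EBP2, -0.0112 to 0.0367 for LARS and -0.00838 to 0.0436 for AARS. In MDA-MB-468 cells it was -0.0066 to 0.153 for EIF4A1 and -0.0822 to 0.0110 for EIF4A2.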
